A study of Mus musculus with 7 samples.

Results

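Gap junction genes were followed in HopX-positive cells of the mouse brain through 5 genes, the connexin genes Gja1, Gjb6, Gjb2 and Gjc1 and the pannexin gene Panx1, which were taken by name from a table of 24978 genes. All 5 were found, each on 1 row. The cells had been isolated by fluorescence-activated sorting from C57BL/6 mice of 3 ages and are labelled neural progenitor cells. There were 2 libraries from embryonic day 15 (E15), 2 from postnatal day 3 (P3), numbered replicates 1 and 3, and 3 from the adult. HopX is a homeodomain protein of radial glia, adult neural stem cells and astrocytes. The labels and notes used here do not give the means by which HopX was detected, the brain region or the age of the adults, so region and gate cannot be told apart from stage. Each value is a TPM, a length-corrected share of the transcripts in a library, so levels can be set side by side between genes, but the read depth behind them is unknown. Whether replicates are separate animals is not stated, and p-values then describe only the spread among these samples, which may be technical.

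Connexins are membrane proteins that assemble in rings, and rings of neighbouring cells dock to form gap junctions, through which ions and small metabolites pass from cell to cell. Gja1 (Cx43) is the main connexin of radial glia and, with Gjb6 (Cx30), of mature astrocytes, whose coupled network buffers potassium and shares glucose and lactate. Gjb2 (Cx26) is best known from epithelia, the inner ear and the meninges, and Gjc1 (Cx45) from the heart's conduction system, smooth muscle and embryonic tissues. Panx1 forms large single-membrane channels that release ATP and, unlike connexins, is not thought to dock into classical gap junctions.

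The windows around the annotated starts of these genes are shown because Gja1, Gjb6 and Gjb2 were highest in the adult and Panx1 was lowest there. The sequences are those of RefSeq on build GRCm38.p6, from 250 bases before to 50 bases after the start, printed 5′ to 3′ on the strand of the gene; 4 of the 5 genes had an entry, and Gjc1 was not among them. The expression values were made on another build (mm9), so the coordinates belong to the windows alone. Capitals mark matches to TGANTCA, the AP-1 motif, or to GGGCGG, the GC box, on either strand, which did not overlap in any of them.
Gja1, chr10:56377050-56377349, + strand: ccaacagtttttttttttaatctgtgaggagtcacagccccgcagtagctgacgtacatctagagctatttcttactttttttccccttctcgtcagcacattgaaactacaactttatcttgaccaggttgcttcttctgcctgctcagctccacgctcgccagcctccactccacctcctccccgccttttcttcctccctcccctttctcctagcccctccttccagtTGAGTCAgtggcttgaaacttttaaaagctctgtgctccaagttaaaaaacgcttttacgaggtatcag
Gjb6, chr14:57133562-57133861, - strand: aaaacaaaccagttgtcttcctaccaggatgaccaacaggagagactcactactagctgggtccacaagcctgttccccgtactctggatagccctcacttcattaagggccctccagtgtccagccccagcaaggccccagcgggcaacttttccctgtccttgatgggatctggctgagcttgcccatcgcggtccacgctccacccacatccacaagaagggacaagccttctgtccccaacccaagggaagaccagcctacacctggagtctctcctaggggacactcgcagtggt
Gjb2, chr14:57104653-57104952, - strand: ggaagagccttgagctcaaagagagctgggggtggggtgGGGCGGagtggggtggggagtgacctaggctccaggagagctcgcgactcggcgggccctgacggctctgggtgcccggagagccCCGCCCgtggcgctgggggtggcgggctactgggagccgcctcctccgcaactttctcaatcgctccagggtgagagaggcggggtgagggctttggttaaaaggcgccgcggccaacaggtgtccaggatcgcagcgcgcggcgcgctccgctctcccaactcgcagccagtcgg
Panx1, chr9:15045429-15045728, - strand: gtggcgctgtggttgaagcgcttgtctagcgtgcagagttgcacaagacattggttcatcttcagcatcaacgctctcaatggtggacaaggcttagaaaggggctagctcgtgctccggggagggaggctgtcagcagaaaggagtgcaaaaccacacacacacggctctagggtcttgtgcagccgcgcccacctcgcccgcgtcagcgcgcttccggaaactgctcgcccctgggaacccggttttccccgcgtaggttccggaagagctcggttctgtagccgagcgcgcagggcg
The Gja1 window held 1 AP-1 match, which began 19 bases before the start, and 7.81% of all 32851 windows of this length held one. The Gjb2 window held 2 GC box matches, 1 on each strand, and at least 1 match was held by 35.7% of all windows. The windows of Gjb6 and Panx1 held neither motif. The letters TATAAA of the TATA box were in none of the 4 windows and in 13.6% of all. The windows of Gjb2 and Panx1 were rich in CpG dinucleotides, with 27 and 25, whereas those of Gja1 and Gjb6 had 8 and 6, near the median of 7 over all windows. A match describes letters only, and the expression data do not bear on which factor binds there. Gjb2 and Gjb6 are next to each other on chromosome 14 in RefSeq, while the other 3 genes lie on different chromosomes.

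Markers of the radial glia and astrocyte lineage were present at every stage. Slc1a3, the glutamate transporter of radial glia and astrocytes, was between 200 and 4570 TPM, and Hopx between 60.5 and 249 TPM. The summed level of 10 astrocyte markers grew with age. It was 554 to 705 TPM at E15, 2652 to 4136 TPM at P3 and 11253 to 12730 TPM in the adult. Most of it in every library was Aldoc, with 510 to 662 TPM at E15 and 7925 to 9079 TPM in the adult. Between P3 and the adult 7 of the 10 passed as higher in the limma tests described below. The others were Gfap, with means of 261 and 107 TPM, Aqp4, with 215 and 187 TPM, and Aldh1l1, with 73.1 and 79.8 TPM. The sum of 9 radial glia and progenitor markers was 5341 to 6257 TPM at E15, 16350 to 25240 TPM at P3 and 7146 to 7869 TPM in the adult. Most of it at E15 and P3 was Fabp7, the brain lipid-binding protein gene, with 13691 to 21682 TPM at P3, and Slc1a3 was the largest part in the adult. Of the 9 markers, 5 passed as lower in the adult than at E15 and 4 as higher in the same tests. Nes, Pax6, Hes5, Vim and Fabp7 fell, with log2 changes of -3.43, -1.60, -2.01, -1.89 and -1.14. Slc1a3, Ptprz1, Hopx and Sox2 rose, by 4.36, 3.57, 1.90 and 1.31. Libraries of 1 stage also differed in markers of other cells. The sum of 8 neuron markers was 90.7 TPM in the P3 library numbered 1 and 579 TPM in the one numbered 3. The sum of 8 oligodendrocyte markers was 618 and 425 TPM in Adult replicates 1 and 3 and 80.4 TPM in replicate 2, where Mog, a defining myelin gene, was listed at 0.

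Gja1 was the most abundant of the 5 genes in every library and rose at each step. The E15 libraries held 50.03 and 43.3 TPM of it, those of P3 549 and 331 TPM, and those of the adult 1753, 1513 and 1472 TPM. The 3 stages did not overlap, and in the adult Gja1 ranked between 56th and 78th among all genes of a library. It averaged 440.1 ± 154 TPM at P3 and 46.6 ± 4.79 TPM at E15 (SD, n = 2 each), 9.44-fold higher at P3, with a change of 3.17 on the log2(TPM + 1) scale (SE 0.23, adjusted p = 0.000295). Tests are limma's, with p-values adjusted by the Benjamini-Hochberg method over all 15931 genes tested, and a gene passed below 0.05. In the adult it averaged 1579 ± 152 TPM (SD, n = 3), 3.59-fold above P3, a log2 change of 1.88 (SE 0.21, limma adjusted p = 0.000965). From E15 to the adult the log2 change was 5.05 (SE 0.21, limma adjusted p = 3.44e-06). The higher of the P3 libraries, replicate 1, was also the one with the higher astrocyte sum and the lower neuron sum, and the part of cell composition in this spread was not tested. In bulk samples, more cells of a type and more RNA per cell cannot be told apart.

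Gjb6 was near the bottom of the measured range at E15, low at P3 and abundant in the adult. Its TPM was 0.418 and 0.253 in E15 replicates 1 and 2, 4.09 and 2.28 in P3 replicates 1 and 3, and 1063, 985 and 846 in Adult replicates 1 to 3. No stage overlapped another, and the adult libraries, Adult replicate 2 with its few oligodendrocyte transcripts included, lay close together. The adult mean was 965 ± 110.3 TPM (SD, n = 3), against 3.18 ± 1.28 TPM at P3 (SD, n = 2), a 303-fold difference of means. The ratio of a single adult to a single P3 library ran from 207 to 467. On the log2 scale the change was 7.88 (SE 0.25, limma adjusted p = 1.20e-05), the largest increase among the 15931 genes tested between P3 and the adult. Gjb6 kept that rank in 12 of 14 alternative analyses, and was 6th with a pseudocount of 0.1 and second without P3 replicate 1. The astrocyte marker sum given above was also higher in the adult than at P3, and its part in the change of Gjb6 was not tested. Between E15 and the adult it also ranked first, with a log2 change of 9.49 (SE 0.25, limma adjusted p = 1.58e-06), and ranked between 1st and 3rd in the alternatives.

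The earlier step of Gjb6, between E15 and P3, was small in level. It averaged 3.18 ± 1.28 TPM at P3 and 0.335 ± 0.117 TPM at E15 (SD, n = 2 each), and the log2 change was 1.62 (SE 0.28, limma adjusted p = 0.0129). This call was lost when E15 replicate 1 (limma adjusted p = 0.0514), E15 replicate 2 (adjusted p = 0.0877) or P3 replicate 1 (adjusted p = 0.093) was left out, which leaves 1 library at that stage, taken to vary like the rest. The log2 change was 2.89 with a pseudocount of 0.1 and 0.61 with a pseudocount of 5, where it did not pass (limma adjusted p = 0.114).

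Gjb2, the chromosomal neighbour of Gjb6, was detected in the adult at a level far below that of Gjb6. Its TPM was listed as 0 and 0.0544 at E15, as 0.287 and 0 at P3, and as 10.96, 6.61 and 6.70 in Adult replicates 1 to 3. The adult libraries lay above all 4 earlier ones, and the E15 and P3 libraries overlapped. Because a library of each earlier stage was listed at 0, no fold is given. The adult averaged 8.09 ± 2.49 TPM (SD, n = 3), and the difference in log2(TPM + 1) was 2.97 against P3 and 3.11 against E15 (SE 0.37 each). Gjb2 entered the test only because the adult libraries passed the filter on low values, so these differences are a description and no p-value is given for them. Between P3 and E15 the difference was 0.14, with a 95% confidence interval of -0.79 to 1.07, and did not pass (limma adjusted p = 0.865). The size of the adult changes depended on the pseudocount, from 1.33 to 5.34 against P3 and from 1.36 to 6.00 against E15 with pseudocounts of 5 and 0.1. Gjb2 is also a gene of meningeal cells. The 9 meningeal markers summed to 31.2 to 31.9 TPM at E15, 35.9 to 50.5 TPM at P3 and 483 to 2552 TPM in the adult, most of the adult sum being Ptgds, a prostaglandin synthase that oligodendrocytes also make. Without Ptgds the other 8 summed to 15.1 to 18.5 TPM at E15, 16.9 to 30.5 TPM at P3 and 4.71 to 9.92 TPM in the adult. Adult replicate 1 was the highest of its stage for both Gjb2 and Ptgds, and the part of meningeal or oligodendrocyte RNA in the level of Gjb2 was not tested.

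**Figure D1:**
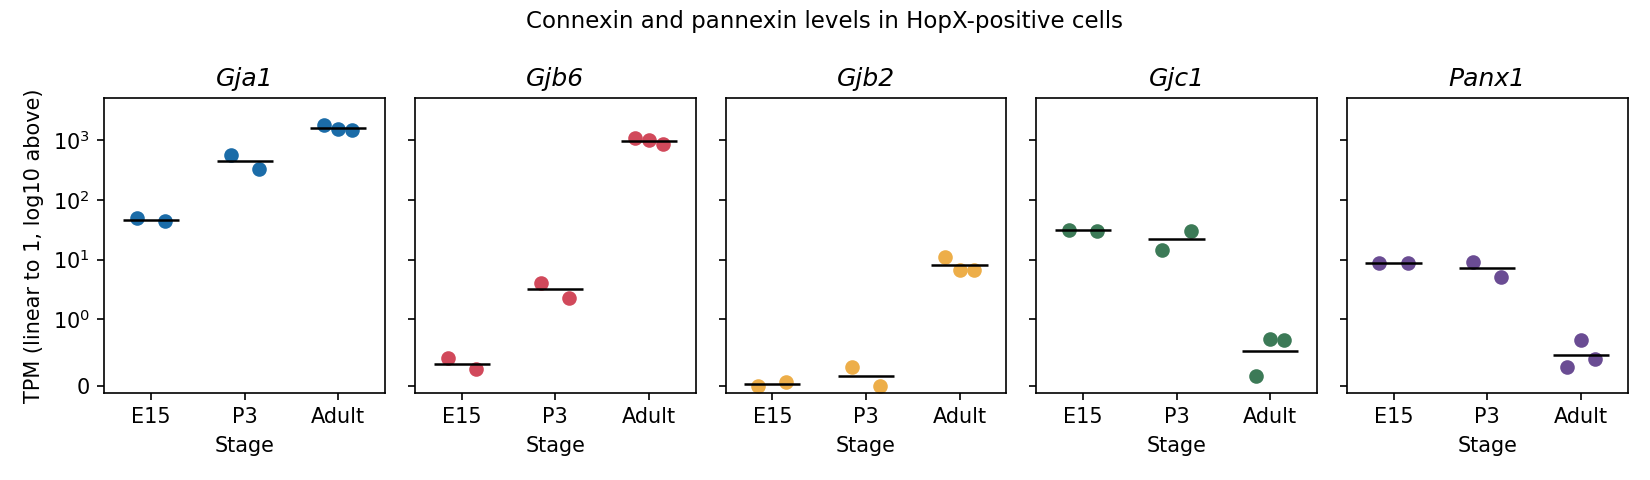
TPM of each gene by stage, 1 point per library and a line at the stage mean, on an axis that is linear up to 1 TPM and log10 above. Gja1, Gjb6 and Gjb2 were highest in the 3 adult libraries, where Gjc1 and Panx1 were below 1 TPM.

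Gjc1 ran the other way, with overlapping levels at E15 and P3 and less than 1 TPM in the adult. E15 replicates had 31.2 and 30.3 TPM, P3 replicates 1 and 3 had 14.3 and 30.6 TPM, and Adult replicates 1 to 3 had 0.151, 0.711 and 0.693 TPM. The E15 and P3 libraries overlapped, and every adult library lay below them. The adult mean of 0.518 ± 0.318 TPM (SD, n = 3) was 43.3-fold below the P3 mean of 22.4 ± 11.5 TPM (SD, n = 2), a log2 change of -3.88 (SE 0.40, limma adjusted p = 0.000696). Against E15 the log2 change was -4.41 (SE 0.40, limma adjusted p = 0.000107). With a pseudocount of 5 these changes were -2.25 and -2.70. The difference of P3 minus E15 was -0.53, with a 95% confidence interval of -1.53 to 0.47 (limma adjusted p = 0.504). Leaving out P3 replicate 3 gave -1.06 and leaving out P3 replicate 1 gave -0.0080, so the value rests on which P3 library is used. The P3 library with more Gjc1, replicate 3, also had the higher neuron marker sum, and the part of neuronal RNA was not tested. The neuron sum itself was 72.0 to 203 TPM in the adult, against 1035 to 1232 TPM at E15. Its 8 markers did not all move that way. Relative to E15, 6 of them passed as lower in the adult and 1, Syt1, as higher (limma). Relative to P3, only Dcx passed as lower, whereas Snap25 and Syt1 passed as higher, with log2 changes of 1.97 and 1.89. Gjc1 is also a gene of smooth muscle. Of the mural markers, the smooth muscle myosin gene Myh11 did not exceed 0.0368 TPM in any library. In P3 replicates 1 and 3, however, Tagln was at 13.3 and 5.83 TPM and Acta2 at 1.27 and 1.04 TPM. All 9 mural markers together summed to 9.80 to 12.1 TPM at E15, 78.0 to 117 TPM at P3 and 14.5 to 24.8 TPM in the adult. Most of the P3 sum was Rgs5, with 86.1 and 51.6 TPM. Of 6 mural markers tested, 5 passed as lower in the adult than at P3 (limma). The other, Pdgfrb, was highest in the adult, with a mean of 9.09 TPM against 3.51 TPM at P3. The part of mural RNA in the level of Gjc1 was not tested.

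Panx1 was a low transcript at E15 and P3 and fell below 1 TPM in the adult. Its values were 8.83 and 8.64 TPM for E15, 9.24 and 5.15 TPM for P3 replicates 1 and 3, and 0.284, 0.689 and 0.404 TPM for Adult replicates 1 to 3. As with Gjc1, E15 and P3 overlapped and all adult libraries were lower. The adult averaged 0.459 ± 0.208 TPM (SD, n = 3), 15.7-fold below the 7.20 ± 2.89 TPM of P3 (SD, n = 2), with a log2 change of -2.45 (SE 0.37, limma adjusted p = 0.00294). Against E15 the log2 change was -2.75 (SE 0.37, limma adjusted p = 0.000728). Between P3 and E15 the difference was -0.29, with a 95% confidence interval of -1.22 to 0.63 (limma adjusted p = 0.696), and it changed sign to 0.073 without P3 replicate 3. Of the P3 libraries, replicate 1 had more Panx1, the opposite order to Gjc1. The adult changes were -1.14 against P3 and -1.33 against E15 with a pseudocount of 5, and -3.71 and -4.05 with a pseudocount of 0.1.

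Counted together, 2 of the 5 genes rose from E15 to P3 and none fell (limma), none at an unadjusted p under 0.05 either, where 6.63% of all genes tested were called, 5.56% as higher and 1.08% as lower. From P3 to the adult 3 passed as higher, Gjb2 among them, and 2 fell, where 22.2% of all genes were called, 8.39% as higher and 13.8% as lower. From E15 to the adult the same 3 passed as higher and the same 2 fell, where 40.1% were called, 15.4% as higher and 24.7% as lower. Because Gjb2 had to differ in the adult, these counts are a description. The comparisons share libraries and are not independent. The median log2 change over all genes tested was -0.15, -0.13 and -0.30 in these comparisons, and 0, -0.02 and -0.04 after median-of-ratios scaling of the libraries. The direction of every one of the 5 genes was kept under that scaling.

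**Figure D2:**
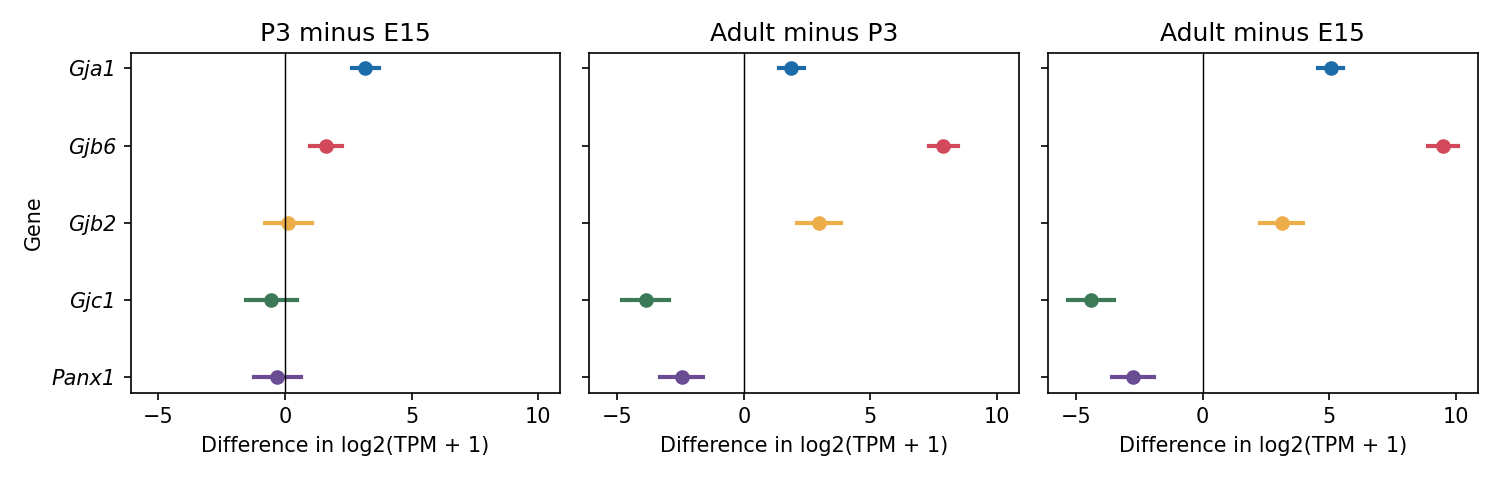
Difference in log2(TPM + 1) of each gene for P3 minus E15, Adult minus P3 and Adult minus E15, with points at the limma estimate and bars for the 95% confidence interval (n = 2, 2 and 3 libraries). Gjb6 reached 7.88 and 9.49 in the adult comparisons, whereas the bars of Gjb2, Gjc1 and Panx1 cross 0 for P3 minus E15.

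The make-up of the connexin and pannexin pool changed at each stage. The 20 family genes in the table summed to 92.97 ± 4.46 TPM at E15 (SD, n = 2), 478 ± 148 TPM at P3 (SD, n = 2) and 2560 ± 255 TPM in the adult (SD, n = 3). Gja1 made up 52.0% and 48.2% of this sum in the E15 libraries, 94.2% and 88.8% in the P3 libraries and 61.8%, 60.3% and 63.1% in the adult libraries. At E15 the next gene was Gjc1, with 32.5% and 33.7%, followed by Panx1 with 9.19% and 9.61%. At P3 Gjc1 held 2.44% and 8.19%, and its share was then larger in the library with less Gja1. In the adult the remainder was almost entirely Gjb6, with 37.5%, 39.3% and 36.2%, while Gjb2 held 0.387%, 0.264% and 0.287%. Gjc1 held 0.00531% to 0.0297% of the adult sum and Panx1 0.01% to 0.0274%. The order of levels was thus Gja1, Gjc1, Panx1, Gjb6 and Gjb2 in both E15 libraries and both P3 libraries, and it was Gja1, Gjb6 and Gjb2 in all adult libraries, with Gjc1 and Panx1 below 1 TPM and overlapping. All other neighbours in these orders held non-overlapping levels within a stage.

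**Figure D3:**
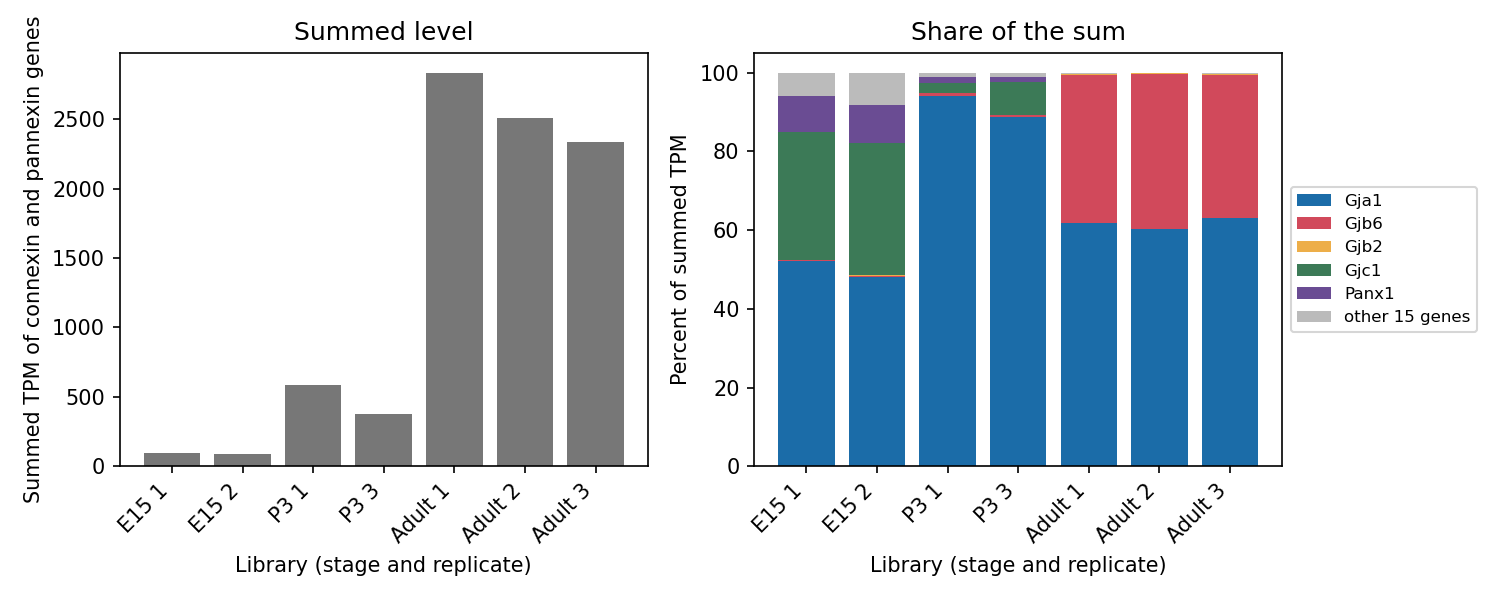
Summed TPM of the 20 connexin and pannexin genes in each library (left) and the percent of that sum held by each gene (right). Gjc1 and Panx1 take a visible share at E15, Gja1 takes 94.2% and 88.8% at P3, and Gjb6 takes 36.2% to 39.3% in the adult.

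The connexins that rose did not appear together. With onset set at 1 TPM in every library of a stage, Gja1 was present from E15, Gjb6 from P3 and Gjb2 in the adult alone, and Gjc1 and Panx1 were present at E15 and P3 and not in the adult. With 5 TPM as the limit, Gjb6 too was present in the adult alone, and the other 4 genes kept their stages. Gja1 reached 27.9% of its adult mean at P3, whereas Gjb6 reached 0.33%. The 10 astrocyte markers were between 5.40% (Ntsr2) and 245% (Gfap) of their adult mean at P3, with a median of 22.7%, so Gjb6 lay below all of them on this measure and Gja1 lay within their range.

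Set against Gja1 in the same library, the other genes followed different courses. Gjb6 was at 0.835% and 0.584% of the Gja1 level in the E15 libraries, 0.745% and 0.688% in the P3 libraries, and 60.7%, 65.1% and 57.4% in the adult libraries. The P3 values lay inside the E15 range, and the adult values were far above both. Gjc1 was at 62.4% and 70.0% of Gja1 at E15, 2.60% and 9.23% at P3, and 0.0086% to 0.047% in the adult. Panx1 was at 17.7% and 20.0% at E15, 1.68% and 1.56% at P3, and 0.0162% to 0.0455% in the adult. The log2 ratio to Gja1 differed between the stages for each of Gjb6, Gjc1 and Panx1 (exact permutation test of the F statistic over 210 assignments of the 7 libraries, p = 0.00952 and 0.00952 after Benjamini-Hochberg over 4 ratios), which is the smallest p this test can give here. The fourth ratio, that of Gjb2, is not read, because with Gjb2 at or near 0 at E15 and P3 it is set there by Gja1 and the pseudocount. The Adult minus P3 difference in log2 ratio was 6.00 for Gjb6, -5.76 for Gjc1 and -4.34 for Panx1. Its size depended on the pseudocount, since adult Gjc1 and Panx1 were below 1 TPM. With pseudocounts of 5 and 0.1 it was 5.02 and 6.36 for Gjb6, -4.12 and -7.15 for Gjc1, and -3.01 and -5.60 for Panx1. No pair of stages can pass 0.05 on its own in such a test. At low levels the ratio depended on the pseudocount, and the P3 minus E15 difference for Gjb6 was -1.55, against -0.31 with a pseudocount of 0.1.

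**Figure D4:**
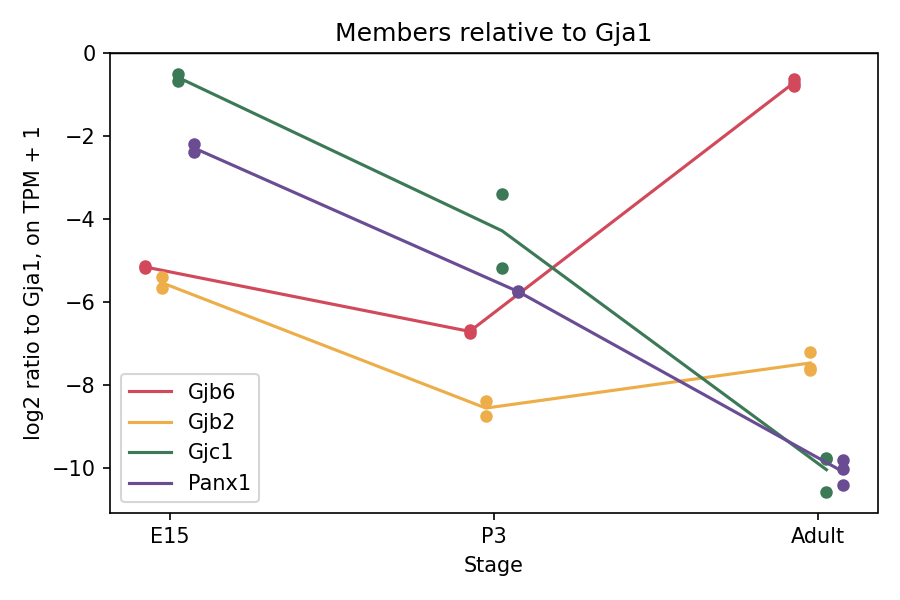
Log2 ratio of each gene to Gja1, computed on TPM + 1, by stage, with 1 point per library and lines joining the stage means. Gjb6 lies within 1 log2 unit of Gja1 in the adult alone, and Gjc1 within 1 unit at E15 alone.

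The rest of the family was low throughout. Of 18 other connexin and pannexin genes listed, 15 were in the table, none exceeded 3.88 TPM in any library, and 2, Gjc3 and Gje1, were tested, having reached 1 TPM in 2 libraries or more. Neither passed in a comparison (limma), and neither had an unadjusted p under 0.05. Without the filter on low values, Gja6 (0.40 for P3 minus E15 and -0.44 for Adult minus P3) and Gjd2 (-1.09 for Adult minus E15) passed, though Gja6 never exceeded 0.4 TPM. Gjc3, a connexin of oligodendrocyte lineage cells, had 2.59 to 2.63 TPM at E15, 1.18 to 1.31 TPM at P3 and 0.806 to 3.88 TPM in the adult, so the adult libraries spanned the earlier ones. The median log2 change of this pair was -0.34, 0.25 and -0.09 in the comparisons of P3 with E15, the adult with P3 and the adult with E15. The vascular connexin Gja4 stayed at or below 0.589 TPM, and Gjd2, the connexin of neuronal electrical synapses, at or below 1.65 TPM.

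Of 24 listed genes for proteins that bind connexins or govern their traffic, 19 were tested. From E15 to P3 4 of the 19 rose and 1 fell, where 5.56% of all genes rose and 1.08% fell, with a median of -0.07 against -0.15 over all genes. Hepacam, an adhesion molecule that holds partner proteins at astrocyte contacts, was at 39.7 and 26.8 TPM in the P3 libraries, against 0.804 and 1.28 TPM in the E15 libraries (log2 4.05, SE 0.28, limma adjusted p = 0.000244). Its partner Mlc1 rose by 3.09, the caveolar coat gene Cav1 by 2.88 and the endfoot water channel gene Aqp4 by 6.14. Dbn1, which encodes the actin-binding protein drebrin, fell by 1.68 on the log2 scale, a call that was lost without the filter, without the trend, and on leaving out either E15 library or P3 replicate 1. Aqp4 is also 1 of the 10 astrocyte markers above. Cav1 was highest at P3, with 112 to 227 TPM, against 17.4 to 24.7 TPM at E15 and 39.0 to 46.7 TPM in the adult. The summed ependymal markers were highest at P3 too, with 305 to 462 TPM. They summed to 15.7 to 24.95 TPM at E15 and 29.3 to 38.7 TPM in the adult. Their largest part at P3 was Dynlrb2, with 236 and 128 TPM, while Foxj1 did not exceed 0.596 TPM in any library. All 6 ependymal markers tested passed as higher at P3 than at E15 and as lower in the adult than at P3 (limma). The mural sum given above was also highest at P3, most of it Rgs5. The part of ependymal or mural cells in the course of Cav1 was not tested. From P3 to the adult 2 of the 19 rose and 4 fell, where 8.39% of all genes rose and 13.8% fell. The median was -0.28 against -0.13. Hepacam rose again, to 147, 119 and 122 TPM in the adult (log2 1.95, SE 0.26), and so did Clcn2, a chloride channel gene whose product is held by the Hepacam protein (log2 2.10). Cav1 (-1.87), Dbn1 (-1.88), Ctnnb1 (-1.47), which encodes beta-catenin, and Tsg101 (-0.91), of the endosomal sorting machinery, fell. With P3 replicate 3 left out, 2 genes of the list fell. Between E15 and the adult 7 rose and 5 fell, where 15.4% of all genes rose and 24.7% fell. Among them were Tjp1 (1.40), which encodes a zonula occludens scaffold that binds Gja1 protein, and the ubiquitin ligase gene Nedd4 (-1.48). The median was -0.29 against -0.30. With E15 replicate 1 or E15 replicate 2 left out, 4 rose.

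ATP released through pannexin channels and connexin hemichannels is sensed by P2 receptors and broken down outside the cell to adenosine. Of 18 genes of this signalling tested of 21 listed, 4 rose and none fell from E15 to P3 by limma's adjusted p, though 2, Nt5e (-1.08) and Adora3 (-0.97), were lower at an unadjusted p under 0.05 in the limma fit. Of all genes 5.56% rose and 1.08% fell in that comparison. The list had a median of 0.56 against -0.15 over all genes. Entpd2, an enzyme that breaks down extracellular ATP, was at 134 and 73.1 TPM in the P3 libraries, against 5.47 and 1.70 TPM in the E15 libraries (log2 4.58, SE 0.42, limma adjusted p = 0.000708). The adenosine receptor genes Adora2b (3.07) and Adora1 (2.45) and the phospholipase gene Enpp2 (3.35) rose with it. From P3 to the adult 4 rose and 1 fell, where 8.39% of all genes rose and 13.8% fell, with a median of 0.38 against -0.13. Adora2b rose to 62.0, 67.7 and 69.8 TPM in the adult, against 13.5 and 5.004 TPM at P3 (log2 2.85, SE 0.38, limma adjusted p = 0.00187). P2ry12 (3.75), a receptor gene of microglia, rose as well. P2ry13 (2.29), another such gene, is in the count too. It did not exceed 0.783 TPM at E15 or P3 and entered the test only through the adult, with 5.17 to 6.07 TPM. Its place in this count, and in that of E15 to the adult, is therefore a description. The 8 microglia markers, P2ry12 included, summed to 270 to 408 TPM in the adult, against 66.9 to 87.5 TPM at P3, and the part of microglial RNA in these changes was not tested. Adk, the adenosine kinase gene, rose by 1.24. The ATP receptor gene P2ry1 fell (-1.39). Its TPM was 2.75 in both P3 libraries, 2.71 and 0.757 in the E15 libraries and at most 0.754 in the adult. It thus entered the test only with the P3 libraries, and its place in the count is a description. Its call was lost without P3 replicate 1, P3 replicate 3 or Adult replicate 2. It was also lost with a pseudocount of 0.1, with no filter, with the replicate number as a block and after median-of-ratios scaling. Between E15 and the adult 8 rose and 1 fell, where 15.4% of all genes rose and 24.7% fell. The median of the list was 1.13 against -0.30. The 1 that fell was the adenosine-forming enzyme gene Nt5e (-1.51), a call lost without E15 replicate 2. Nt5e had 3.39 and 5.65 TPM at E15 and later reached 1 TPM only in P3 replicate 3, with 2.27 TPM. It entered the test only through E15, so its fall here and its lower value at P3 are a description. P2rx7, an ATP-gated channel gene often studied with Panx1, rose by 1.13 from E15 to the adult, where Panx1 fell.

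Genes with the most similar course were sought for each of the 5 by the root mean square difference of their log2(TPM + 1) values over the 7 libraries, after each gene was centred on its mean. Gja1 was closely matched by Hspa2 (0.12), Cd302 (0.12) and Naaa (0.14). For Gjb6 the nearest gene was Hsd11b1, an enzyme that regenerates active glucocorticoid, at a distance of 0.92. Etnppl (0.99) and CR974586.6 (1.27) followed. No gene among those searched thus lay as near to Gjb6 as Hspa2 lay to Gja1. The distance is not scaled to the size of the change, which from E15 to the adult was 9.49 for Gjb6 and 5.05 for Gja1. Hsd11b1 itself spanned 0.0678 to 0.660 TPM at E15, 11.7 to 17.2 TPM at P3 and 802 to 899 TPM in the adult. Gjb2 was nearest to Tsc22d3 (0.19), Tox2 (0.22) and Sema4a (0.22), Gjc1 to Dpysl3 (0.25), Ccnb2 (0.26) and Ctps (0.26), and Panx1 to Ywhaq-ps3 (0.20), Them5 (0.24) and Apitd1 (0.25). Dpysl3 is a gene of growing axons and Ccnb2 encodes a mitotic cyclin. Among the 5 genes themselves Gjc1 and Panx1 were nearest to each other (0.91), then Gja1 and Gjb2 (1.18), whereas Gja1 and Gjb6 were 2.65 apart. The libraries of a stage share that stage, so such distances describe 3 stages more than 7 independent points.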

How the data were processed

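RNA was measured in 7 libraries of sorted HopX-positive cells. The authors deposited TPM values, 1 column per library, which summed to between 998450 and 999193 and were used as deposited. The submitters' processing notes name bcl2fastq, Bowtie and build mm9, and no counting program. TPM keeps no depth, so no count model, counting interval or floor from counts was used, and confidence intervals are those of the limma fit. Groups and replicate numbers came from the labels. The 15931 of 24978 genes that reached 1 TPM in 2 or more libraries were tested on log2(TPM + 1) in 1 limma 3.58.1 fit (R 4.3.3, trend, stage as only term, 4 residual degrees of freedom), calling genes whose p, adjusted by Benjamini-Hochberg over the whole set, was under 0.05. Ratios to Gja1 used an exact permutation test of the F statistic in Python 3.11.15. Both were checked on simulated data. The 5 genes and the 14 gene lists were chosen with earlier results of these data known. Named beside the 5 genes were, per pathway list and comparison, up to 4 genes past the threshold with the largest change and, for each of the 5, the 3 most similar genes outside the family, leaving out symbols that end in Rik or start with Rnu, Snor, Mir, LOC or a numbered Gm; other named genes were chosen after their values were seen. Ehd1, listed under a pair of identifiers with identical values, was counted once. Alternatives were other pseudocounts (0.1 and 5), no filter, median-of-ratios scaling, no trend, a replicate block, leaving out each library, an onset limit of 5 TPM and, added after seeing the data, leaving out Adult replicates 1 and 3 together.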

Additional observations from a re-analysis of the deposited data

How the results depend on the processing

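For the 5 genes 12 changes passed the threshold, those of Gjb2 included. Of these, 11 kept their direction and call under all alternatives in which the gene could be tested. Gjb2 missed the filter with Adult replicates 1 and 3 left out together. It was tested only because the adult libraries passed the filter, so that its adult calls were kept is a description. The exception among the 12 was Gjb6 from E15 to P3, at 0.61 with a pseudocount of 5, where 1 gene rose instead of 2. Leaving out a library gave 1.30 to 1.93 for it and a count of 1 to 2. Uncalled differences of P3 minus E15 then ran from -0.038 (without P3 replicate 1) to 0.33 for Gjb2 and from -0.66 to 0.073 (without P3 replicate 3) for Panx1. For the Adult minus E15 log2 ratio to Gja1, leaving out a library gave 4.40 to 4.49 for Gjb6, -2.08 to -1.80 for Gjb2, -9.60 to -9.20 for Gjc1 and -7.94 to -7.63 for Panx1; without an adult library the exact permutation test cannot go below 0.0667. The ratio of Gjb2 turned to 0.92 with a pseudocount of 0.1. With an onset limit of 5 TPM, Gjb6 had 1 stage instead of 2.

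No shared deviation of same-numbered libraries was seen, as their correlations ran from -0.02 to 0.02. With 2 libraries each at E15 and P3, the deviations within a stage mirror each other. These correlations therefore cannot tell whether equal numbers mark a shared animal or day. With the replicate block the log2 changes of Gjb6 were 1.77, 7.86 and 9.62, and no call of the 5 genes changed. With the block, 2 ATP and adenosine genes fell between E15 and the adult, as they did without Adult replicate 3, in place of 1. Because depth is unknown, no counting error can be given for levels under 1 TPM, such as those of Gjb6 at E15 or Gjc1 in the adult.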

Other observations

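Gjb1, a connexin gene of oligodendrocytes, was detected in the adult libraries with the higher oligodendrocyte marker sums. It was at 0.739 and 0.974 TPM in Adult replicates 1 and 3 and listed at 0 in replicate 2 and in all earlier libraries. It was below the filter and was not tested.

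Cryl1, the protein-coding neighbour of Gjb6 on the side away from Gjb2, had 0.382 to 0.505 TPM at E15, 3.48 to 6.17 TPM at P3 and 9.03 to 12.6 TPM in the adult. Its order of stages was the order of Gjb6, at a level about that of Gjb2 in the adult. Higd1b, the neighbour of Gjc1 and a pericyte marker, was listed at 0 in all 3 adult libraries, with 0 to 0.473 TPM at E15 and 6.58 to 8.46 TPM at P3.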
